A study of Homo sapiens with 2 samples.

Results

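The 2′-5′-oligoadenylate synthetase genes OAS1, OAS2, OAS3 and OASL were examined together with PDE12 and ABCE1, genes for regulators of the ribonuclease RNase L. These 6 genes were taken by symbol from a count table of 63677 genes, and all 6 had an average of at least 1 CPM (counts per 1000000 of the scaled library size). The table holds 2 RNA-seq libraries of HGC-27, an established human line labelled gastric adenocarcinoma. Cells of the control library had received the empty plasmid pcDNA3.1, and cells of the lncPSCA library the plasmid pcDNA3.1-lncPSCA, which carries the long non-coding RNA lncPSCA. Both were transfected with the reagent INTERFERin and collected after 48 hours. With 1 library per group, the values compare 2 libraries, no test of the conditions was possible, and each interval covers counting error only.

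The OAS proteins bind double-stranded RNA, and the catalytic members OAS1, OAS2 and OAS3 then join ATP into short 2′-5′-linked oligoadenylates. These oligoadenylates make RNase L pair into an active nuclease that cuts single-stranded viral and cellular RNA. OASL keeps the OAS fold but lacks this synthetase activity; it carries ubiquitin-like repeats and binds the RNA sensor RIG-I. PDE12 is a mitochondrial phosphodiesterase that degrades 2′-5′ oligoadenylates, and ABCE1 is an ATPase of ribosome recycling that was first described as an inhibitor of RNase L. Transcription of OAS genes is known to follow interferon through the transcription factor complex ISGF3, which binds interferon-stimulated response elements.

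OAS1 and OAS3 lie side by side on chromosome 12, and the 250 bases before their annotated starts are shown because these genes were higher together. The sequences come from RefSeq (GRCh38.p14), whose promoter table matched 4 of the 6 genes by symbol (OAS1, OAS3, PDE12 and ABCE1). Capitals mark the response element core GAAANNGAA and the word AACGAAACC, which both windows contain.
OAS1, chr12:112906712-112906961, plus strand: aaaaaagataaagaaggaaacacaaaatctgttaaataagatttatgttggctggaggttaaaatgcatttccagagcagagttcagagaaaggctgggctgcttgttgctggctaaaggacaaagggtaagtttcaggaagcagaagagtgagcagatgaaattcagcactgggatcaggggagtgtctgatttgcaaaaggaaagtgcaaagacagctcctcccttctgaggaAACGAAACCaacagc
OAS3, chr12:112938224-112938473, plus strand: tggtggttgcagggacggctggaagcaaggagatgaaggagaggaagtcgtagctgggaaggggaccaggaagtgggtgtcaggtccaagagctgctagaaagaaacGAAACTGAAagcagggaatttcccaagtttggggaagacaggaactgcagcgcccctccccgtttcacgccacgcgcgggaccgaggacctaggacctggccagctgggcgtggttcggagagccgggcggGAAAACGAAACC

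The core and the STAT dimer site TTCNNNGAA were searched on both strands of the 300-base windows, which run 50 bases past the start. The OAS3 window held the core at 2 places, GAAACTGAA beginning 143 bases before the start and GAAAACGAA beginning 12 bases before it. The OAS1 window held no exact core, and 1 STAT dimer site (TTCAGAGAA) beginning 168 bases before the start. The core as searched has 2 free bases between GAAA and GAA. In OAS1 the letters GAAACGAAA, which overlap the shared word, have 1 base there and cannot match. The missing exact core therefore does not show that the OAS1 window lacks a response element. The PDE12 and ABCE1 windows held neither. Of 35116 promoter windows, 8.11% held the core and 7.66% held the STAT dimer site. The word AACGAAACC began 15 bases before the OAS1 start and 9 bases before the OAS3 start, where it overlaps the second core. It was chosen after these sequences were seen. It occurred in 26 windows, or 0.0740% of all, and in neither the PDE12 nor the ABCE1 window. A match describes letters in a window and does not show that a factor bound there.

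Sequencing depth was similar, with 21552098 control counts and 23016646 lncPSCA counts. PSCA, a gene whose name the plasmid's RNA shares, had 22 control and 28699 lncPSCA reads; lncPSCA itself has no row under that name. The gastric lineage genes TFF1, TFF2, GKN1, GKN2 and CLDN18 had no reads in either library, and all 8 gastric lineage markers summed to 0.332 CPM in control and 0.213 CPM in lncPSCA. The 6 epithelial markers, KRT8, KRT18 and EPCAM among them, summed to 6.78 and 4.34 CPM. Defining genes of the labelled gastric origin were thus at or near 0. The 5 mesenchymal markers summed to 2790 and 2832 CPM, of which VIM made up 2601 and 2594 CPM. Of the others, FN1 was higher at 2.35-fold (2.13 to 2.59), and CDH2 was at 0.190 and 0.255 CPM. The 9 leukocyte markers summed to 7.30 and 7.36 CPM, and the 4 endothelial markers to 0.237 and 0.553 CPM, and their part in the results was not tested.

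All 4 OAS genes were much higher with lncPSCA than with the empty plasmid, and neither PDE12 nor ABCE1 was higher or lower. "Higher" and "lower" here and below refer to a rule of size. The libraries average 1 CPM or more, and their ratio, taken with a pseudocount of 1, is 2-fold or more. The 95% counting interval of the fold, taken without a pseudocount, stays beyond 1.5-fold. By this rule 4 of the 6 genes were higher and 0 were lower. Among all 15440 genes with at least 1 CPM, 3.02% were higher and 0.596% were lower. Together the OAS genes had 655 reads in control and 41106 in lncPSCA, or 31.0 and 1748 CPM, a 56.3-fold difference (52.1 to 60.9). In bulk RNA, more expressing cells and more RNA per cell cannot be told apart. They took 0.00304% of all counts in control and 0.179% in lncPSCA. Their gain of 1717 CPM was 6.15% of the summed gain of all 467 genes that were higher.

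OAS2, a synthetase built of paired OAS units, had 45 reads in control and 8858 in lncPSCA. This corresponds to 2.13 CPM in control and 377 CPM in lncPSCA. It was the least abundant of the OAS genes by reads in control and the runner-up to OAS3 in lncPSCA, and its ratio, 177-fold (132 to 242), ranked 4th among the 467 higher genes.

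OAS3, the largest member, whose enzyme is known for its affinity for long double-stranded RNA, had 440 reads in control and 22161 in lncPSCA. Its level was 20.9 CPM in control and 943 CPM in lncPSCA. OAS3 was the most abundant OAS gene by reads in both libraries. Its ratio of 45.2-fold (41.1 to 49.8) was the smallest of the 4, while its gain of 922 CPM ranked 7th of the 467.

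OAS1, the single-unit synthetase, had 82 reads in control and 5046 in lncPSCA, or 3.89 and 215 CPM. OASL had 88 reads in control and 5041 in lncPSCA, or 4.17 and 214 CPM. By reads, not corrected for gene length, OAS1 and OASL were nearly level with each other in both libraries. Their ratios were 55.2-fold (44.4 to 69.6) for OAS1 and 51.4-fold (41.6 to 64.2) for OASL. Per kilobase, their levels in lncPSCA differed, in an order that depends on the length used. By ratio they ranked 12th and 15th among the higher genes, and OAS3 ranked 17th.

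**Figure D1:**
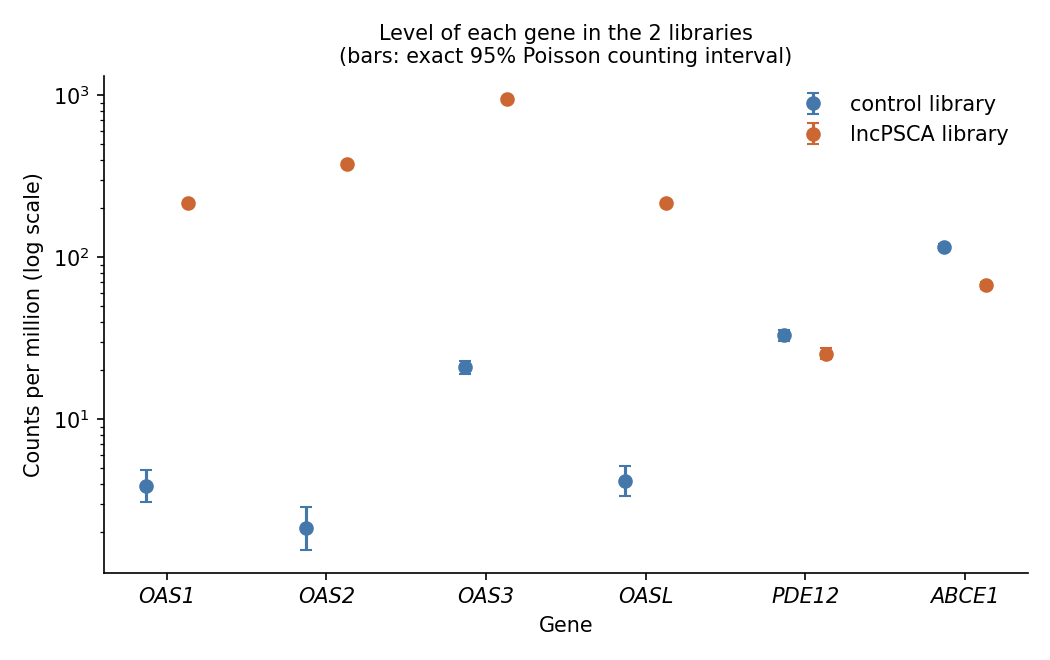
CPM on a log axis for each of the 6 genes, with 1 point for the control and 1 for the lncPSCA library and bars for the exact 95% Poisson counting interval. The 4 OAS genes sit at 2.13 to 20.9 CPM in control and at 214 to 943 CPM in lncPSCA, whereas PDE12 goes from 32.8 to 25.4 CPM and ABCE1 from 115.5 to 66.9 CPM.

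The OAS genes did not share 1 ratio. The fold of OAS2 was 3.91 times that of OAS3 (2.87 to 5.44) and 3.44 times that of OASL (2.37 to 5.05), while the fold of OAS1 was 0.313 times that of OAS2 (0.212 to 0.456). For the other pairs the interval included 1: OAS1 against OAS3 gave 1.22 (0.961 to 1.57). OAS1 against OASL gave 1.07 (0.784 to 1.47), and OAS3 against OASL gave 0.879 (0.690 to 1.11). These are exact conditional intervals on the reads of 2 libraries and compare those libraries, not the conditions.

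The make-up of the OAS reads shifted accordingly. OAS2 took 6.87% of the summed OAS reads in control (exact binomial interval 5.05 to 9.09) and 21.5% in lncPSCA (21.2 to 21.9). OAS3 took 67.2% (63.4 to 70.8) in control and 53.9% (53.4 to 54.4) in lncPSCA. The OAS1 share was 12.5% (10.1 to 15.3) in control and 12.3% (11.96 to 12.60) in lncPSCA. The OASL share was 13.4% (10.9 to 16.3) and 12.3% (11.9 to 12.6). Thus the intervals of OAS2 and of OAS3 did not overlap between the libraries, and those of OAS1 and OASL did. Shares of 1 sum are not independent, and a larger OAS2 share lowers the others. The smaller OAS3 share therefore does not set OAS3 apart from OAS1 and OASL. The intervals of its fold against theirs included 1 (0.961 to 1.57 for OAS1 over OAS3, 0.690 to 1.11 for OAS3 over OASL).

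**Figure D2:**
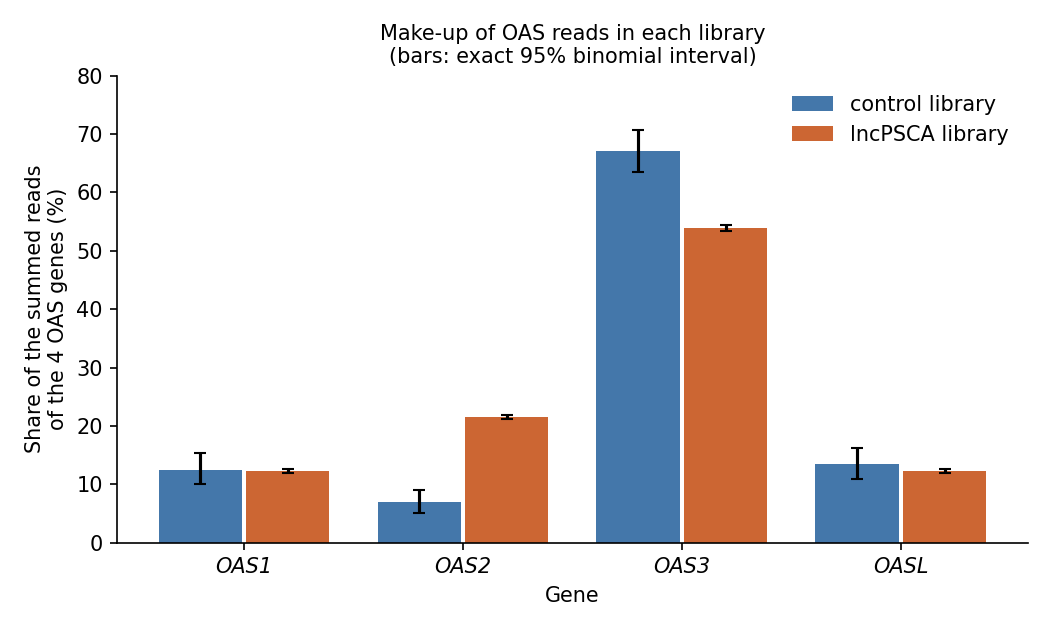
Share of each OAS gene in the summed reads of the 4 genes, in percent, for the control library (655 reads) and the lncPSCA library (41106 reads), with exact 95% binomial intervals. The OAS2 bar goes from 6.87% to 21.5% and the OAS3 bar from 67.2% to 53.9%.

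Levels of different genes were compared per kilobase of exon, as CPM per kilobase (RPKM), with the union of all annotated exons in GENCODE 29 as the length. In the control library ABCE1 came first at 18.4 RPKM (17.7 to 19.2), then PDE12 at 3.67 (3.40 to 3.95) and OAS3 at 2.53 RPKM (2.30 to 2.77). OASL at 1.19 RPKM (0.951 to 1.46) and OAS1 at 0.786 RPKM (0.625 to 0.975) overlapped in their intervals, and OAS2 was last at 0.340 RPKM (0.248 to 0.456). The regulators thus stood above every OAS gene in control.

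In the lncPSCA library the order was turned over. OAS3 was first at 114 RPKM (113 to 116), above 97.5% of the measured genes with a length, against 34.0% in control. OASL at 61.0 RPKM (59.3 to 62.7) and OAS2 at 60.1 RPKM (58.9 to 61.4) overlapped, and OAS1 followed at 43.4 RPKM (42.2 to 44.6). ABCE1 at 10.7 RPKM (10.2 to 11.2) and PDE12 at 2.84 RPKM (2.62 to 3.08) came last. The order of OAS1, OAS2 and OASL depends on the length used. Divided by the longest transcript of each gene, the lncPSCA order after OAS3 was OAS1 at 88.8 RPKM, OAS2 at 79.6 RPKM and OASL at 65.7 RPKM, without overlap. In control OAS1 (1.61 RPKM) then stood before OASL (1.28 RPKM), with overlapping intervals. For OAS1 the longest transcript has 2416 bases and the union of exons 4947 bases. The counts do not separate the 11 annotated OAS1 transcripts.

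PDE12 had 693 reads in control and 597 in lncPSCA, or 32.8 and 25.4 CPM. Its fold was 0.773 (0.692 to 0.864), within the 2-fold limit. Its log2 ratio was -0.37, above that of 15.4% of measured genes, and 2232 other genes lay within 0.1 of it.

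ABCE1 had 2437 reads in control and 1574 in lncPSCA, or 115.5 and 66.9 CPM. Its fold was 0.580 (0.544 to 0.618), which also fell short of 2-fold. A log2 ratio of -0.79 placed it above only 2.22% of measured genes, with 321 others within 0.1 of it.

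**Figure D3:**
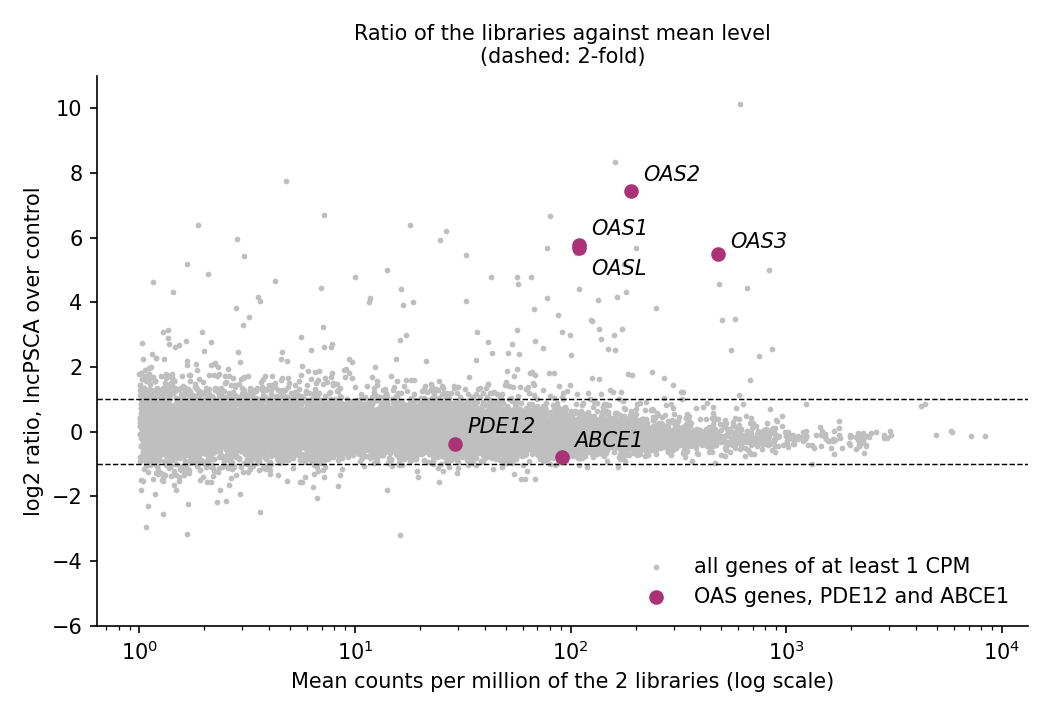
Log2 ratio of lncPSCA over control against mean CPM (log axis) for the 15440 genes of at least 1 CPM, with the 6 genes named and dashed lines at 2-fold. The OAS genes lie between 5.50 and 7.43, and PDE12 (-0.37) and ABCE1 (-0.79) lie between the dashed lines.

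Sequence shared with other genes differed among the genes, as searched on both strands in words of a chosen length of 50 bases. No source used here gives the strand setting of the counting, so the effect on read assignment is not known. Words of 50 bases from the annotated transcripts of OAS2 and OASL occurred in no other gene's transcripts. Such words made up 1.07% of OAS1 words, 0.615% of OAS3 words, 1.80% of PDE12 words and 15.6% of ABCE1 words, and no OAS gene shared a word with another. Of the 1038 shared words of ABCE1, 372 occurred in ANAPC10, 194 in AC098588.1 and 181 in OTUD4, which overlap it on the opposite strand. ANAPC10 had 311 reads in control and 262 in lncPSCA, and OTUD4 had 813 and 879. AC098588.1 has no row among the counted genes, so its reads are not known. The 3 processed pseudogenes that share most words with ABCE1 had at most 6 reads each in a library.

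An antisense gene, AC004551.1 (ENSG00000257452), overlaps OAS1, OAS3 and OAS2 on the opposite strand and shares 92 exonic bases with OAS1. It had 16 reads in control and 1146 in lncPSCA, a 64.3-fold difference (39.4 to 113), and was higher by the rule. It was named after its values were seen. No source used here says whether counting used strand, so its reads and those of the OAS genes cannot be told apart over shared bases.

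Unlike the antisense gene, the measured genes in a list of chromosomal neighbours of the OAS genes did not show ratios of this size. Of 8 measured genes among 11 neighbours, 1 was higher and 0 were lower, beside 3.02% and 0.596% of all measured genes. The median log2 ratio was -0.14 against -0.02 for all measured genes. PTPN11, a phosphatase gene close to OAS1, had a fold of 0.921 (0.870 to 0.975). RPH3A, next to OAS1, had 1 read in control and 2 in lncPSCA, and DTX1, next to OAS2, had none in either. Neither is among the 8 measured genes, so the nearest flanking genes of the cluster give no ratio to compare. P2RX7, an ATP-gated channel gene next to OASL, was higher at 3.50-fold (1.72 to 7.86) on 10 and 39 reads; it is not counted where a mean of 5 CPM is required.

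Among other genes of the pathway, AKAP7, a further enzyme that degrades 2′-5′ oligoadenylates, was at 1.55-fold (1.08 to 2.23), and ENPP1, a phosphodiesterase, at 1.18-fold (1.0 to 1.39). Of the 5 genes in this list of RNase L partners and other hydrolases, 0 were higher and 0 were lower, and the median log2 ratio was 0.23. Among all measured genes 3.02% were higher and 0.596% lower, so 5 genes are too few to set this list apart. The actin crosslinker gene FLNA (1501 and 1387 CPM) and DAP3, a mitochondrial ribosome gene (191 and 164 CPM), were its most abundant members.

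Among 13 measured genes for other sensors and effectors of double-stranded RNA, 7 were higher and 0 were lower, with a median log2 ratio of 1.25. The shares among all measured genes were 3.02% and 0.596%. RIGI, a sensor of RNA ends, was at 4.50 CPM in control and at 208 CPM in lncPSCA, 46.1-fold higher (37.7 to 57.1). DHX58, its regulator LGP2, was at 1.42 and 64.2 CPM, 45.2-fold higher (31.5 to 67.2). IFIH1, the sensor MDA5, had 0 control reads against 88 in lncPSCA. Set against 3 control counts in place of 0, it was 26.3-fold higher. Its counting interval, which also covers the error of the 88 reads, began at 21.0-fold. Where a mean of at least 5 CPM was required, IFIH1 was not counted and 6 genes of this list were higher. TLR3, an endosomal sensor, was 5.90-fold higher (4.19 to 8.54). EIF2AK2, the kinase PKR, was 3.60-fold higher (3.44 to 3.78), and ADAR, an RNA-editing enzyme, 3.0-fold (2.92 to 3.08). ZC3HAV1, an antiviral zinc-finger protein, was 2.37-fold higher (2.22 to 2.54). MAVS, the adaptor of RIG-I and MDA5, was at 65.9 and 65.0 CPM.

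In the path from the interferon receptors to ISGF3, 5 of 14 measured genes were higher and 0 were lower, with a median log2 ratio of 0.48. Beside them, 3.02% of all measured genes were higher and 0.596% lower. The count in this list was 3 where a mean of at least 5 CPM was required. The ISGF3 subunit genes STAT2 and IRF9 were 7.93-fold (7.35 to 8.56) and 3.26-fold (2.11 to 5.19) higher. Of the feedback inhibitors, USP18 was 10.8-fold higher (9.79 to 11.9) and SOCS1 4.81-fold (3.31 to 7.21). The transcription factor IRF1 was 2.79-fold higher (2.51 to 3.11). Receptor genes did not meet the rule: IFNAR1 had 25.8 and 26.2 CPM, IFNAR2 had 10.4 and 7.70 CPM, and IL10RB had 13.5 and 10.1 CPM. IFNLR1, a receptor subunit for type III interferons, had 6.59 and 12.6 CPM, a fold of 1.91 (1.56 to 2.36) that fell short of 2.

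ABCE1 was also set beside its partners in translation termination and ribosome recycling and its ABC family relatives. Of 13 measured genes, 0 were higher and 0 were lower, 2 had a log2 ratio above 0, and the median was -0.31. With 3.02% higher and 0.596% lower among all measured genes, counts of 0 do not set this list apart. ETF1, a release factor, had 250.6 CPM against 184.5 CPM, and ABCF2, an ABC family relative, at 247 and 204 CPM. DENR, a recycling factor, had a fold of 0.619 (0.579 to 0.662) and HBS1L, a ribosome rescue factor, 0.650 (0.586 to 0.722). LTN1 and NEMF, which act on stalled ribosomes, were the members above 0, at 1.94-fold (1.68 to 2.23) and 1.62-fold (1.42 to 1.86). These 4 genes were picked after their values were seen. The ABCE1 fold of 0.580 lay below that of each of the 13.

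The list of PDE12 relatives and mitochondrial RNA tail enzymes had 1 higher gene of 12 measured, 0 lower, and a median log2 ratio of 0.22. Among all measured genes 3.02% were higher and 0.596% lower, so 1 gene does not set this list apart. The higher gene was PNPT1, a mitochondrial exoribonuclease that is also known as an interferon-induced gene, at 3.42-fold (3.25 to 3.61). MTPAP, the mitochondrial poly(A) polymerase whose tails PDE12 shortens, was at 36.1 and 37.4 CPM.

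**Figure D4:**
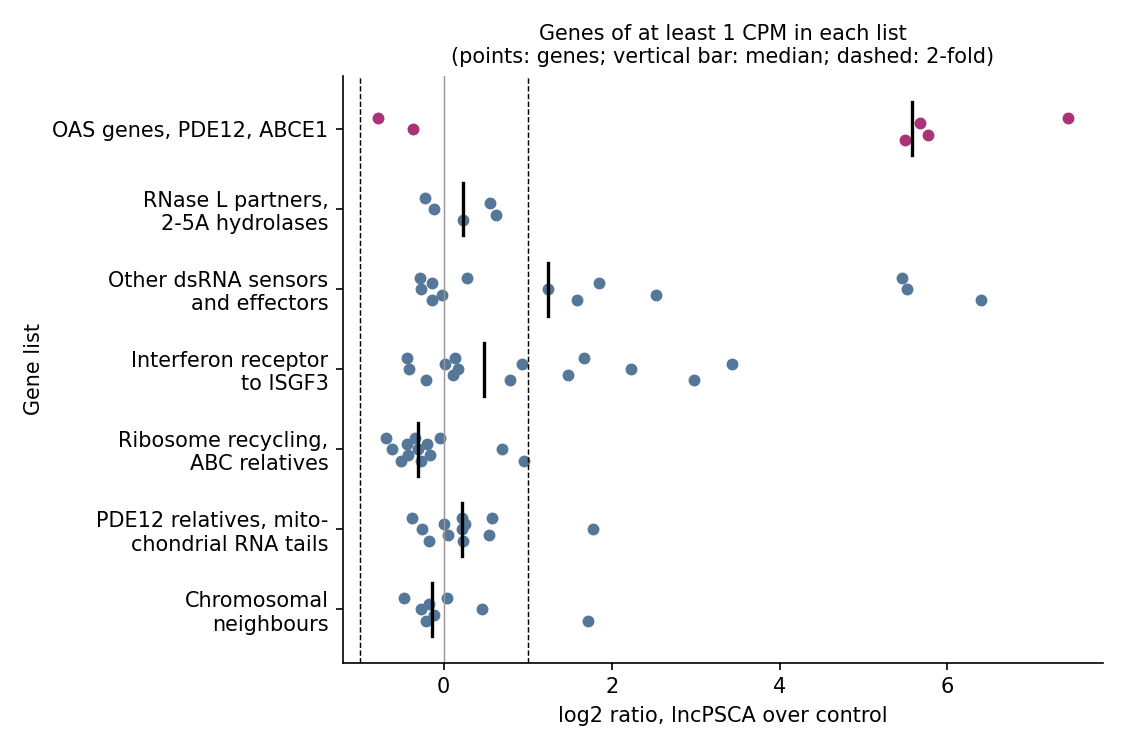
Log2 ratio of lncPSCA over control for every measured gene of each list (points), with the list median as a vertical bar and dashed lines at 2-fold. Sensor genes and receptor-to-ISGF3 genes spread from below 0 up to 6.40 and 3.43, while the recycling list lies between -0.69 and 0.95. The value 6.40 belongs to IFIH1, which had 0 control reads, so its size depends on the pseudocount.

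Among named genes averaging 5 CPM or more, those with a ratio most like that of the OAS genes were sought over the 2 libraries, as the smallest difference from the mean OAS log2 ratio of 6.09. They were BATF2, a transcription factor gene (0.12 away), TRIM22, an antiviral ubiquitin ligase (0.30), IFI27 (0.41), DDX60, a helicase gene (0.42), and RSAD2, which encodes viperin (0.57). Control reads were 14 for BATF2, 8 for TRIM22, 161 for IFI27, 62 for DDX60 and 32 for RSAD2. All but IFI27 averaged 5 CPM or more only through the lncPSCA library. The fold intervals were wide, 46.8 to 145 for BATF2 and 47.3 to 217 for TRIM22. The distances therefore do not firmly order the 5 genes. The antisense gene AC004551.1, which has no symbol in the table of names used, was 0.17 away. RSAD2 went from 1.52 to 158 CPM. The mean of 6.09 lies below OAS2 (7.43) and above OAS1 (5.77), OASL (5.67) and OAS3 (5.50). Likeness to this mean is therefore not likeness to each OAS gene. RIGI (5.51) and DHX58 (5.45), for example, lay nearer to OAS3 than any of the 5 named genes did.

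The word shared by the OAS1 and OAS3 windows was also looked up in the windows of other genes. Apart from the 6 genes, 13 measured genes held AACGAAACC, and 5 of them (38.5%) were higher and 0 were lower. Of the 10667 measured genes with a window, 2.91% were higher. The 5 were RSAD2 at 104-fold (73.9 to 153), PLSCR1 at 7.91-fold (7.19 to 8.72), PARP12 at 6.55-fold (5.80 to 7.41), MX1 at 3.51-fold (2.18 to 5.89) and TRIM25 at 2.70-fold (2.60 to 2.81). PLSCR1 is a scramblase, PARP12 an ADP-ribosyltransferase, MX1 an antiviral GTPase and TRIM25 a ubiquitin ligase that acts on RIG-I. The other 8 had log2 ratios from -1.05 (FMC1) to 0.11 (GRIPAP1), and the median over the 13 was -0.04. Of 927 measured genes with the exact core GAAANNGAA, 71 (7.66%) were higher, against 239 of 9740 (2.45%) without it. For the STAT dimer site the shares were 4.28% of 888 genes with it and 2.78% of 9779 without. These counts describe 2 libraries and the annotated windows, and no test was made of them.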

How the data were processed

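RNA of 1 control and 1 lncPSCA culture was sequenced, and the authors deposited raw counts per Ensembl gene. The submitters' processing notes name TopHat2, HTSeq and hg19; no source used here gives versions, annotation, strand setting or read filters. Identifiers were matched to symbols for 52181 genes (81.9%). The edgeR 4.0.16 TMM factors were 0.979 (control) and 1.02 (lncPSCA). Log2 ratios used a pseudocount of 1 scaled to library size, and folds none. Intervals are 95% Clopper-Pearson (folds and shares) or exact Poisson (levels); reads carry no molecular identifiers, so these cover counting error only. A running median over 501 genes served for centring. The size rule was tried on simulated counts that held counting error only, so the trial cannot show how the rule behaves under spread between cultures. Exons, overlaps and transcripts came from GENCODE 29 (GRCh38), matched by gene identifier, and no gene coordinates are given from it. No protein table was used here. Genes named are the 6 genes, up to 6 list members meeting the rule by ratio (or the 2 most abundant), and the 5 named genes nearest in ratio that averaged 5 CPM or more; others were picked after their values were seen. The genes and 6 lists (71 entries) were chosen with earlier results of these data known. Some list entries are not reported here and stay out of the list counts.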

Additional observations from a re-analysis of the deposited data

How the results depend on the processing

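No paired analysis was possible because each group has 1 library, and leaving out a library would leave no comparison. Under all 9 alternatives (DESeq2 1.42.0 size factors, total counts, upper quartile, centring along mean expression or transcript length, a pseudocount of 0.5, no CPM minimum, a minimum of 5 CPM, and 3-fold) the 4 OAS genes were higher, and PDE12 and ABCE1 were neither. The log2 ratios ranged from 5.75 to 5.90 for OAS1, 7.41 to 7.60 for OAS2, 5.40 to 5.64 for OAS3, 5.64 to 5.80 for OASL, -0.49 to -0.31 for PDE12 and -0.81 to -0.67 for ABCE1. Centring along mean expression moved OAS3 to 5.64 and ABCE1 to -0.67, beyond their counting intervals. Of all measured genes, 284 were higher and 46 lower at a minimum of 5 CPM, 197 and 20 at 3-fold, and 150 were lower with no minimum, against 467 and 92. Total counts gave 1 higher gene in the ribosome recycling list, and a minimum of 5 CPM left 0 higher among the chromosomal neighbours and 3 from the interferon receptors to ISGF3. With 1 mismatch allowed, the response element core was in 3 of the 4 windows and in 60.5% of all windows, and the added word AACGAAACC was in 2 of the 4. Low control counts (45 to 88 reads for OAS1, OAS2 and OASL) limit the precision of their folds, and the spread between cultures was not measured.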
